A study of Homo sapiens with 2 samples.

Results

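The unfolded protein response of the endoplasmic reticulum (ER) was described through 10 genes in H1299 cells, a line grown from a human non-small cell carcinoma of the lung, after metformin. The genes were picked by name, as the IRE1 and ATF6 arms of the response and their known targets: the sensors ERN1 and ATF6, the transcription factor XBP1, the chaperones HSPA5, HSP90B1 and CALR, the co-chaperones SDF2L1 and DNAJB9, the disulfide isomerase PDIA4 and the degradation factor HERPUD1. They were 10 of the 27685 genes listed, and all 10 were among the 14078 measured genes, meaning that 1 library or both listed them at 1 TPM or above. TPM sets the level of a gene per unit of its length against the sum over the library. The treated cells were H1299 given 5 mM metformin, a biguanide prescribed in type 2 diabetes, and they were set against H1299 left untreated (control). Each group was 1 library, and H1299 is a single cell line. The sources used here do not give the time of exposure.

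When unfolded proteins build up in the ER lumen, the chaperone HSPA5, also called BiP, leaves the sensors IRE1 (gene ERN1), ATF6 and PERK (gene EIF2AK3), which then become active. IRE1 cuts a short intron out of XBP1 mRNA so that the active factor XBP1s is made, and ATF6 moves to the Golgi, where proteases release its transcription factor part. Both factors act on genes of folding, transport and ER-associated degradation, many through short promoter sequences called ER stress elements, whereas PERK acts through translation and ATF4. Tumour cells are known to keep the response partly active when nutrients or oxygen are short.

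Depth came to about 31.7 M read pairs (6.40 Gb aligned) in metformin and 28.7 M (5.80 Gb) in control. With 1 library per group no difference has a replicate check, so p-values are left out, and the 95% intervals of TPM ratios cover the counting of reads only. A gene was counted as higher or lower where its difference of log2(TPM + 1), metformin minus control, came to 2-fold or to 1.5-fold. The median difference over all measured genes was -0.08, so a gene slightly below 0 lay at the centre of the data. The labelled line was checked on its markers. VIM, the mesenchymal filament protein for which the line is known, had 4962 TPM in metformin and 4378 in control, and KRT18, an epithelial keratin, 954 and 553. KRT8, its partner, had 521 TPM in metformin and 269 in control. CDH1, EPCAM, NKX2-1 and SFTPC, markers of epithelial and lung lineage, were each below 1 TPM in both libraries. None of 5 leukocyte markers reached 1 TPM, with sums of 0.557 TPM in metformin and 0.895 in control and CD3E at 0 in both, nor did any of 8 fibroblast and endothelial markers, with sums of 0.697 and 0.196 and COL3A1, LUM, PECAM1, VWF and CDH5 at 0 in both.

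The 10 genes split. In the metformin library HERPUD1, XBP1 and HSPA5 were listed at 1.71, 1.57 and 1.45 times their control TPM. SDF2L1 and HSP90B1 stood at 0.673 and 0.707 of control and PDIA4 and CALR at 0.855 and 0.862. Of measured genes, 67.8% and 66.8% had a larger difference than PDIA4 and CALR, so these lay nearer the centre of the data. ERN1 was listed at 1.15 times its control TPM, and ATF6 and DNAJB9 at 1.03 and 1.02 times. In such bulk RNA, fewer cells that express a gene and less of its RNA per cell cannot be told apart. None of the 10 was higher by 2-fold, against 1.51% of measured genes, and none was lower by 2-fold, against 1.24%. At 1.5-fold on the log2(TPM + 1) scale 2 genes were higher, HERPUD1 and XBP1, where 5.40% of measured genes were, and none was lower, where 7.03% were. The difference was above 0 in 6 of the 10 genes, against 40.3% of measured genes, and the median of the 10 was 0.03. With the libraries centred on the median of genes at 10 TPM or more in both, 6 again lay above 0, where 50.9% of measured genes did. Among these 6, the counting intervals of the ratios of ATF6 and DNAJB9 included 1. Summed over the 10 genes the level was 1820 TPM in metformin and 1925 in control, 0.182% and 0.192% of each library.

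**Figure D1:**
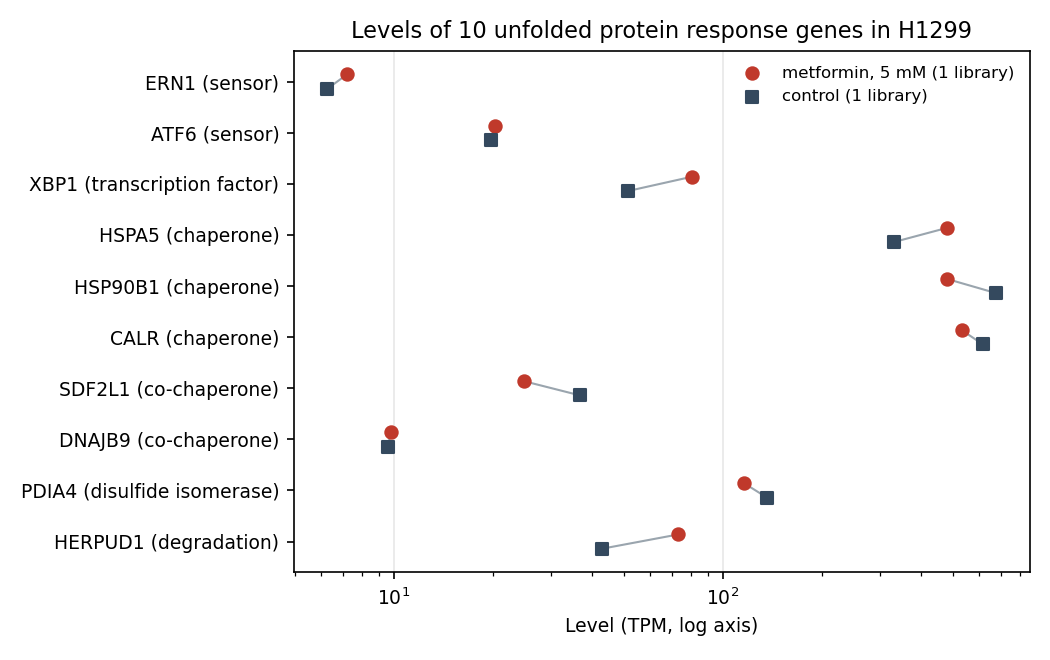
Level of each of the 10 genes (TPM, log axis) in the metformin library (red circles) and the control library (dark squares), 1 library each, with the gene's role in brackets. HSPA5 lies to the right of its control value at 480 against 330 TPM and HSP90B1 to the left at 478 against 676, while the sensors ERN1 and ATF6 lie at low levels close to their control values.

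Among the sensors, ERN1 encodes IRE1, the kinase and ribonuclease that cuts XBP1 mRNA. ERN1 (NCBI gene 2081, chromosome 17 at 62120390 to 62207502 of hg19, minus strand) had 7.21 TPM in metformin and 6.29 in control, a ratio of 1.15 (95% counting interval 1.03 to 1.28) from an estimated 784 and 605 read pairs. It was the lowest of the 10 genes in both libraries. ATF6, the membrane-bound factor that is cleaved in the Golgi, had 20.3 TPM in metformin and 19.8 in control. Its ratio of 1.03 had a counting interval of 0.964 to 1.09, which included 1. ATF6 (NCBI gene 22926) lies on the plus strand of chromosome 1 at 161736034 to 161933860. Both sensors are known to be switched on at the protein level, which TPM does not measure.

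XBP1, the target of IRE1 and itself a known ATF6 target, had 80.6 TPM in metformin and 51.5 in control. The ratio was 1.57 (1.46 to 1.69), from an estimated 1988 and 1123 read pairs, and 4.54% of measured genes had a larger difference. XBP1 (NCBI gene 7494) lies on chromosome 22 at 29190548 to 29196560, minus strand. The deposited value is summed over the gene, so it does not tell spliced from unspliced mRNA. The stretch removed by IRE1 is annotated in GENCODE as an intron of 26 bases in the transcript XBP1-202, at chr22:29192116-29192141 of GRCh37, and is shown because whether it was removed is the readout of IRE1 activity that the gene-level table lacks. It is printed from the minus strand, at chr22:29192104-29192153 with 12 bases on either side, and the capitals mark the intron as annotated. The intron and the bases after it both begin with GCAGCA, so edges shifted along these shared bases would leave the same spliced mRNA. The capitals are therefore not a map of the exact places where IRE1 cuts.
XBP1 intron: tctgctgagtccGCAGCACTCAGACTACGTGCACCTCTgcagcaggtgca

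The chaperones were the most abundant of the 10 genes and differed in direction. HSPA5, which holds unfolded chains and keeps the sensors silent, had 480 TPM in metformin and 330 in control, with a mean read depth of 1335 and 813 over its exons. Its ratio was 1.45 (1.42 to 1.48), just short of 1.5-fold, and its place among measured genes by TPM was 281 in metformin and 444 in control. HSPA5 (NCBI gene 3309) lies on chromosome 9 at 127997127 to 128003666, minus strand. HSP90B1, also called GRP94, the HSP90 paralog of the ER lumen, had 478 TPM in metformin and 676 in control. Its ratio was 0.707 (0.693 to 0.721), and 89.6% of measured genes had a larger difference. Thus the chaperones HSPA5 and HSP90B1 were listed at nearly the same level in the metformin library, whereas HSP90B1 was the higher of the pair in control. HSP90B1 (NCBI gene 7184) lies on chromosome 12 at 104324112 to 104341708, plus strand, and contains the microRNA gene MIR3652 on the same strand, listed at 309 TPM in metformin and 419 in control. Summed, HSP90B1 and MIR3652 had a ratio of 0.719. CALR encodes calreticulin, a lectin chaperone of glycoproteins that also binds calcium. CALR (NCBI gene 811, chromosome 19 at 13049414 to 13055304, plus strand) had 530 TPM in metformin and 615 in control, a ratio of 0.862 (0.842 to 0.882).

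SDF2L1 and DNAJB9 assist HSPA5. SDF2L1, which sits in chaperone complexes of the ER lumen, had 24.8 TPM in metformin and 36.8 in control, a ratio of 0.673 (0.575 to 0.788). This was the lowest ratio of the 10 genes, and it rested on an estimated 282 and 370 read pairs. SDF2L1 (NCBI gene 23753) lies on chromosome 22 at 21996542 to 21998588, plus strand. DNAJB9, or ERdj4, is a known XBP1s target that stimulates the ATPase of HSPA5 and represses IRE1. It had 9.79 TPM in metformin and 9.61 in control, and the interval of its ratio of 1.02 ran from 0.866 to 1.20. At an estimated 325 and 282 read pairs a difference within these bounds was not detectable. DNAJB9 (NCBI gene 4189) lies on chromosome 7 at 108210189 to 108215294, plus strand, and overlaps THAP5 on the other strand by 24 bases.

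PDIA4, or ERp72, forms and rearranges disulfide bonds in the ER lumen. It had 116 TPM in metformin and 136 in control, a ratio of 0.855 (0.820 to 0.891). PDIA4 (NCBI gene 9601) lies on chromosome 7 at 148700154 to 148725782, minus strand. HERPUD1 encodes a ubiquitin-like protein of the ER membrane that scaffolds the ligase complex of ER-associated degradation, and it is known to respond to ATF6, XBP1s and ATF4. It had 73.2 TPM in metformin and 42.9 in control, from an estimated 2876 and 1490 read pairs. Its ratio of 1.71 (1.60 to 1.82) was the highest of the 10 genes, and 3.02% of measured genes had a larger difference. HERPUD1 (NCBI gene 9709) lies on chromosome 16 at 56966002 to 56977793, plus strand.

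**Figure D2:**
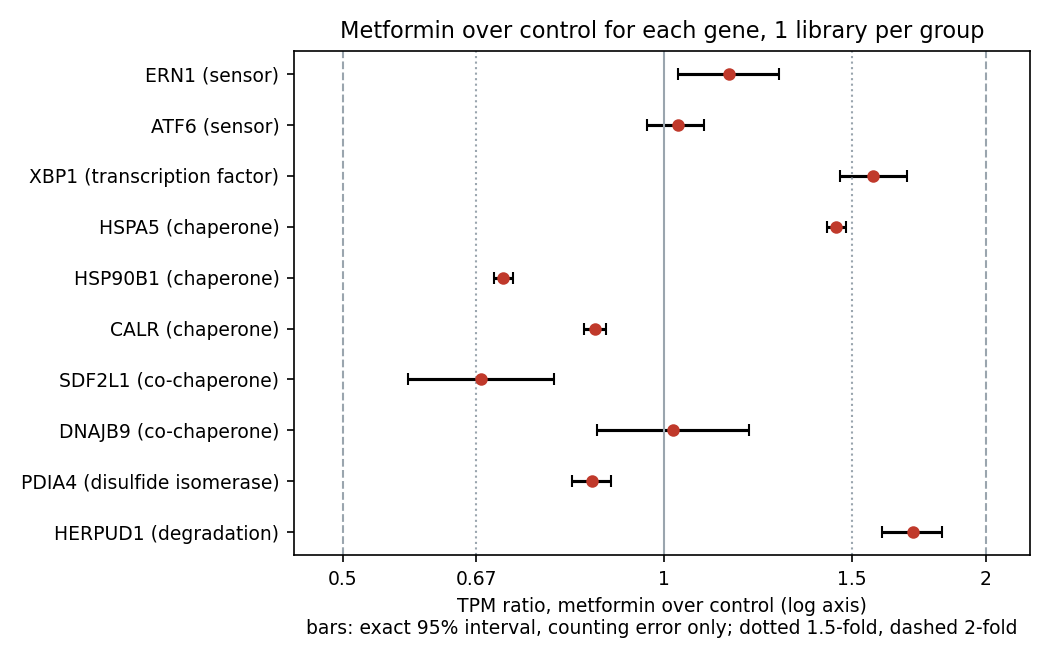
TPM ratio of metformin over control for each of the 10 genes (log axis), with bars for the exact 95% interval of counting error, a solid line at 1, dotted lines at 1.5-fold and dashed lines at 2-fold. HERPUD1, XBP1 and HSPA5 lie right of 1 at 1.71, 1.57 and 1.45, and SDF2L1, HSP90B1, PDIA4 and CALR lie left of 1, while the bars of ATF6 and DNAJB9 cross 1.

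Ratios between genes of 1 library do not depend on how the libraries are scaled. HSPA5 stood at 1.0 times the TPM of HSP90B1 in metformin and at 0.489 times in control, a shift of 2.05-fold. Relative to CALR, HSPA5 stood at 0.905 in metformin and 0.537 in control, a shift of 1.69-fold. HERPUD1 had 2.95 times the TPM of SDF2L1 in metformin and 1.16 times in control. HERPUD1 and SDF2L1 had the highest and the lowest ratio of metformin over control of the 10 genes, so no other pair of them shifts more. Each pair was taken from genes on opposite sides of 1, so a shift was built into the choice.

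The genes on both sides carry the same class of promoter sequence. Promoter windows from RefSeq, 250 bases before to 50 bases after the transcription start, were searched on both strands for the ER stress element ERSE (CCAAT, then 9 bases of any kind, then CCACG) and for ERSE-II (ATTGG, then 1 base, then CCACG). The motifs were counted separately and their fixed letters had to match in full. The first listed window of 6 of the 10 genes held at least 1 of them: 4 held an ERSE (HSPA5, HSP90B1, XBP1 and CALR) and 2 an ERSE-II (HERPUD1 and SDF2L1). Of 27305 genes, each taken at its first listed window, 0.0806% held an ERSE, 0.0549% an ERSE-II and 0.136% either, and of all 35116 listed windows 0.0769%, 0.0541% and 0.131%. The windows of ERN1, ATF6, DNAJB9 and PDIA4 held neither in these exact letters. The 10 genes were picked as known parts and targets of the response. The higher share among them was therefore built into the choice and is not a result. A match is a description of the letters, and binding was not measured.

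The stretches with the elements are shown because HERPUD1, XBP1 and HSPA5, with ratios of 1.71, 1.57 and 1.45, and CALR, HSP90B1 and SDF2L1, with ratios of 0.862, 0.707 and 0.673, can be compared in them letter by letter. Each is RefSeq sequence of the table on GRCh38.p14, matched to a single place in GRCh37 and printed in the gene's direction with 15 bases on either side. Capitals mark the fixed letters of the element. The places in GRCh37 are chr16:56965922-56965962 (plus strand) for HERPUD1, chr22:29196576-29196624 (minus) for XBP1, chr9:128003655-128003703 (minus) for HSPA5, chr19:13049183-13049231 (plus) for CALR, chr12:104323979-104324132 (plus) for HSP90B1 and chr22:21996388-21996428 (plus) for SDF2L1.
HERPUD1: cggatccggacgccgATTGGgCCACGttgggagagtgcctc
XBP1: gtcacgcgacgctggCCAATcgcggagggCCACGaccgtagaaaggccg
HSPA5: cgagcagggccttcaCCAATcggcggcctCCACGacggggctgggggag
CALR: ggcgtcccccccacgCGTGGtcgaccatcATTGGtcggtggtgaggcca
HSP90B1: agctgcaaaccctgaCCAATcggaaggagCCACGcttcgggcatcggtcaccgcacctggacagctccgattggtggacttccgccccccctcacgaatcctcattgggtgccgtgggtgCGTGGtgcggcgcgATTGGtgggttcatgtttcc
SDF2L1: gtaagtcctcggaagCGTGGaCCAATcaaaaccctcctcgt

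In the 3 genes with a ratio over 1 the element read in the direction of the gene, at -66 to -48 bases from the start in HSPA5, -52 to -34 in XBP1 and -117 to -107 in HERPUD1. In CALR and SDF2L1 it read in the reverse direction, at -225 to -207 and -188 to -178. HSP90B1 held an element in each direction, forward at -194 to -176 and reverse at -89 to -71. This arrangement was noticed after the values were seen, in 6 genes, and was not tested. It holds for exact letters only, and with direction taken from the CCACG letters. Where ERSE carries CCAAT, ERSE-II carries ATTGG, its reverse complement. Taken from the CCAAT letters, the exact element of HERPUD1 reads in reverse and that of SDF2L1 forward. The split by ratio is then not kept. With 1 mismatch allowed in the fixed letters, SDF2L1 also held forward elements at -182 to -164 and -28 to -18. HSPA5 then also held a reverse one at -105 to -95, and HERPUD1 another forward one at -83 to -65. HSP90B1 held further reverse ones at -233 to -215 and -154 to -136.

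**Figure D3:**
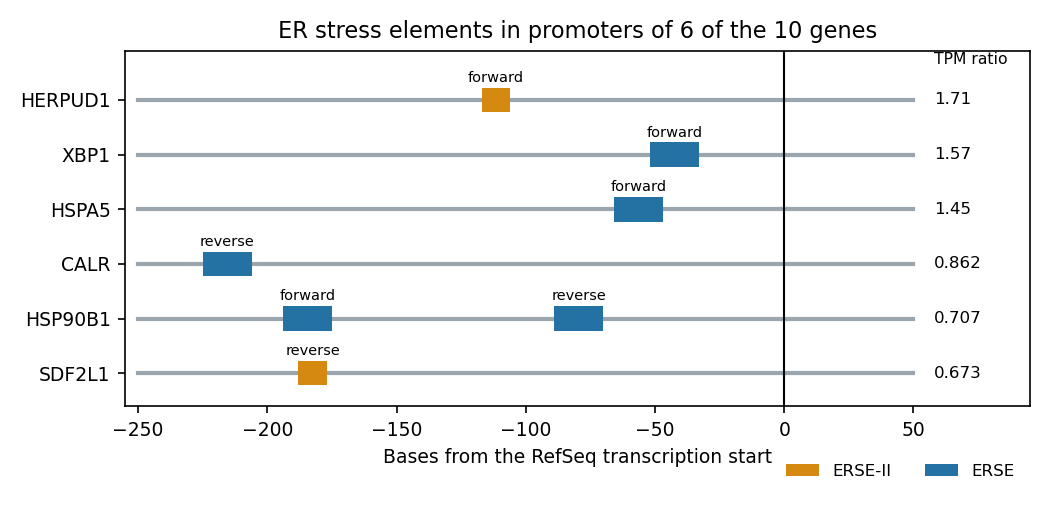
Position of exact ER stress elements (blue, ERSE; orange, ERSE-II) in the promoter windows of 6 genes, in bases from the RefSeq transcription start, with the direction of each element above it and the TPM ratio of metformin over control at the right. Direction is that of the CCACG letters. The exact elements of HERPUD1, XBP1 and HSPA5 read forward and lie at -117 or closer to the start. Those of CALR and SDF2L1 read in reverse and lie at -178 or farther from it. Elements with a mismatch, not drawn, do not keep to this arrangement in SDF2L1 and HSPA5. Taken from the CCAAT letters, the direction of the exact elements of HERPUD1 and SDF2L1 is the opposite of the one shown.

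Of 44 genes with an exact ERSE or ERSE-II in any listed window, 31 were measured. Among the 25 measured ones outside the 10 genes, 6 lay above 0 and 19 below, with a median log2 difference of -0.18, where 40.3% of all measured genes lay above 0 and 59.7% below, with a median of -0.08. With the libraries centred on the median of genes at 10 TPM or more in both, 9 of the 25 lay above 0 and 16 below, where 50.9% of all measured genes lay above 0. None of the 25 was higher by 1.5-fold and 1, SHCBP1, was lower, with 36.9 TPM in metformin and 57.9 in control, against 5.40% and 7.03% of all measured genes. The genes included 5 pairs that share a window on opposite strands, such as ALG12 with CRELD2 and EIF2A with SERP1. HYOU1, an HSP70 relative of the ER that recharges HSPA5 and a known ATF6 target, had 105 TPM in metformin and 93.0 in control, a ratio of 1.13 (1.09 to 1.17). CANX, the membrane-bound partner of calreticulin, had 277 TPM in metformin and 327 in control, a ratio of 0.848. PDIA6, a disulfide isomerase that also binds IRE1, had 224 and 297 TPM, a ratio of 0.753 (0.730 to 0.778).

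Beyond the 10 genes, the pathway was laid out in 10 wider lists. Their counts are to be read against all measured genes, of which 40.3% lay above 0 and 59.7% below with a median of -0.08, and 50.9% above 0 after centring. No difference between a list and the other genes was tested. Of 16 known ATF6 targets, 7 of which are among the 10 genes, 4 lay above 0 and 12 below, with a median of -0.18, so that 75.0% lay below 0 against 59.7% of all measured genes. The 4 above 0 were HERPUD1, XBP1, HSPA5 and HYOU1. Without the 10 genes, 1 of 9 lay above 0. MANF, a secreted ER stress protein, had 76.5 TPM in metformin and 84.8 in control. CRELD2 had 15.0 and 17.9, and DNAJB11, or ERdj3, the co-chaperone that works with SDF2L1, had 93.9 and 119. After centring, 4 targets lay above 0 and 12 below, where 50.9% of all measured genes lay above 0.

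Of 20 known XBP1s targets, 7 lay above 0 and 13 below, with a median of -0.20. The share below 0, 65%, was near the 59.7% of all measured genes. After centring the counts were still 7 above and 13 below, where 50.9% of all measured genes lay above 0, so the shares were then farther apart. SSR3, a subunit of the translocon-associated protein complex, was listed at 101 TPM in metformin and 31.4 in control, 3.21-fold higher (3.04 to 3.39), and was the list gene past 2-fold. SSR1, another subunit of that complex, had 29.0 TPM in metformin and 45.3 in control, a ratio of 0.640, and SEC11C, a signal peptidase subunit, 59.4 and 91.1. SEC24D, a coat protein of COPII vesicles, and ARFGAP3, a GTPase activator of the Golgi, were listed at 1.26 and 1.23 times control. DNAJC3, a co-chaperone that inhibits PERK, had 7.28 TPM in metformin and 8.58 in control. EDEM1, which sends misfolded glycoproteins to degradation, had 8.61 and 9.48, with an interval of its ratio that ran from 0.818 to 1.01.

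Among 18 measured genes of sensing and processing, 10 lay above 0 and 8 below, with a median of 0.04, and the share below 0 was 44.4% against 59.7% of all measured genes. CREB3L1, also called OASIS, an ER-anchored relative of ATF6, had 22.8 TPM in metformin and 11.8 in control, 1.94-fold higher (1.72 to 2.19). CREB3, of the same family, was 1.29-fold higher, and it overlaps TLN1 and GBA2 on the other strand. ATF6B, the closest relative of ATF6, had 111 TPM in metformin and 112 in control. MBTPS1, the first protease that cleaves ATF6, had 130 and 114 TPM, and MBTPS2, the second, 26.0 and 36.0, a ratio of 0.724. MBTPS2 overlaps YY2 on the same strand. RTCB, the ligase that joins the ends of cut XBP1 mRNA, had 90.2 TPM in metformin and 87.6 in control, a ratio of 1.03 (0.972 to 1.09). NFYB, a subunit of the factor NF-Y that binds the CCAAT part of the element, had 20.0 TPM in metformin and 30.7 in control, and TRAF2, the adaptor of IRE1 in kinase signalling, 31.6 and 46.6.

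Of 28 ER chaperones and co-chaperones 11 lay above 0 and 17 below, with a median of -0.12 and none past 1.5-fold. Their share below 0 of 60.7% was near the 59.7% of all measured genes. HSPA5 had the highest difference of that list and SDF2L1 the lowest. FKBP9, a prolyl isomerase, was 1.37-fold higher, CNPY4, which overlaps TAF6 on the other strand, 1.20-fold, and SEC63, a translocon co-chaperone, stood at 0.787 of control. Of 20 measured genes of disulfide formation 5 lay above 0 and 15 below, 75.0% of them against 59.7% of all measured genes, with a median of -0.21. P4HB, the founding protein disulfide isomerase, had 505 TPM in metformin and 433 in control, QSOX1, a sulfhydryl oxidase, 52.7 and 44.5, and SELENOF, an ER selenoprotein, 68.2 and 40.8. TMX2, which overlaps TMX2-CTNND1 on the same strand, stood at 0.615 of control, TMX3 at 0.665 and ERO1A, the oxidase that recharges disulfide isomerases, at 0.672.

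Of 31 measured genes of ER-associated degradation, 11 lay above 0 and 20 below, a share below 0 of 64.5% against 59.7% of all measured genes. After centring, 17 lay above and 14 below, where 50.9% of all measured genes lay above 0. HERPUD1 had the highest difference of that list, and its paralog HERPUD2 had a log2 difference of 0.27 against 0.76 for HERPUD1. NGLY1, which strips N-glycans, was 1.33-fold higher and EDEM2 1.23-fold. SYVN1, the ligase HRD1 that HERPUD1 scaffolds, had 24.0 TPM in metformin and 26.7 in control, and SEL1L, its partner, 36.0 and 38.4. EDEM3 had 7.04 and 13.4, a ratio of 0.525 (0.476 to 0.578), RNF139 stood at 0.703 of control and DERL2, of the retrotranslocation channel family, at 0.770. RNF139 overlaps TATDN1 on the other strand.

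In the PERK and ATF4 arm 11 of 12 genes lay above 0, against 40.3% of all measured genes, and 4 were higher by 2-fold, against 1.51%, with a median of 0.71. Like the other lists, this one was chosen with earlier results of these data known. Its contrast with all measured genes is therefore a description and no independent evidence. Without the GC and length trend TRIB3 at 1.30 and ASNS at 1.36 stayed past 2-fold on the log2 scale, and ATF3 at 0.99 and SESN2 at 0.87 did not. TRIB3, ASNS and ATF3 had ratios of 2.77, 2.40 and 2.15, DDIT3, which encodes CHOP, 1.84, ATF4 1.29 and EIF2AK3, the sensor PERK, 1.25. The eIF2alpha phosphatase subunits PPP1R15A and PPP1R15B stood at 1.07 and 0.919. RNA levels do not measure PERK activity, and whether PERK lay behind these values was not tested. Of 8 mRNAs known to be cut by IRE1, 5 were measured, and 4 of these lay above 0, where 40.3% of all measured genes did. BLOC1S1, the best known of them, had 144 TPM in metformin and 131 in control, with an interval of its ratio of 1.0 to 1.20. CD59 had 111 and 110, PMP22 20.8 and 21.0 and HGSNAT 9.26 and 7.76. COL6A1, a collagen subunit, was 1.73-fold higher. BLOC1S1 overlaps the read-through model BLOC1S1-RDH5 on the same strand.

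**Figure D4:**
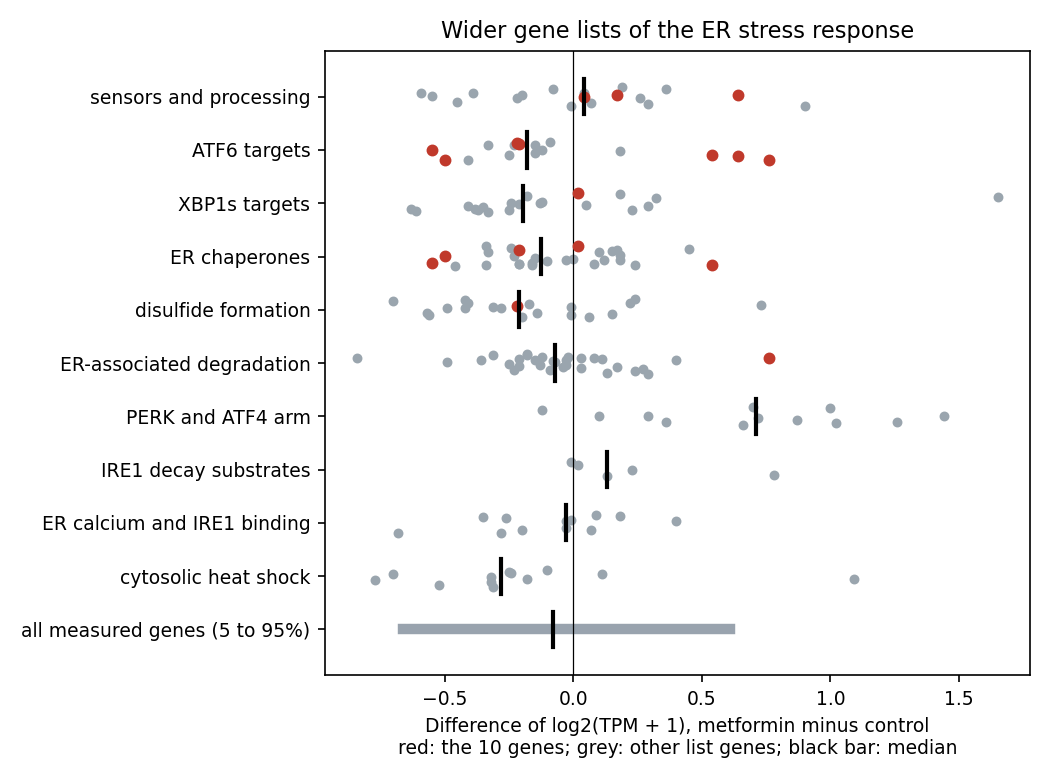
Difference of log2(TPM + 1), metformin minus control, for the measured genes of 10 lists (grey points), with the 10 genes in red, the median of each list as a black bar, and the 5th to 95th percentile of all measured genes at the bottom. The PERK and ATF4 list has the highest median at 0.71, and the ATF6 targets and XBP1s targets have medians of -0.18 and -0.20, with HERPUD1, XBP1 and HSPA5 to the right. The lists were chosen with earlier results of these data known.

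The direction of each of the 10 genes was the same in all 9 alternative processing settings tried. The filter and pseudocount settings among them could not change a direction. Coverage returned nearly the reported values of the 10 genes. FPKM, centring and trimmed mean scaling moved all genes by about the same small amount. Only the removal of the trend over GC content and length acted gene by gene. Across 13185 measured genes, which are not independent replicates, the Spearman correlation of the difference with transcript GC content was 0.35, and the GC content of the 10 genes ran from 37.3% in DNAJB9 to 65.1% in SDF2L1. With the trend over GC content and length removed, the log2 difference of SDF2L1 was -0.73 in place of -0.55, past 1.5-fold, that of DNAJB9 0.24 in place of 0.02 and that of HSP90B1 -0.38 in place of -0.50. HERPUD1, XBP1 and HSPA5, with GC contents of 47.1%, 49.5% and 46.1%, stood at 0.78, 0.62 and 0.57 without the trend. The part of GC content in these differences was not tested further.

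**Figure D5:**
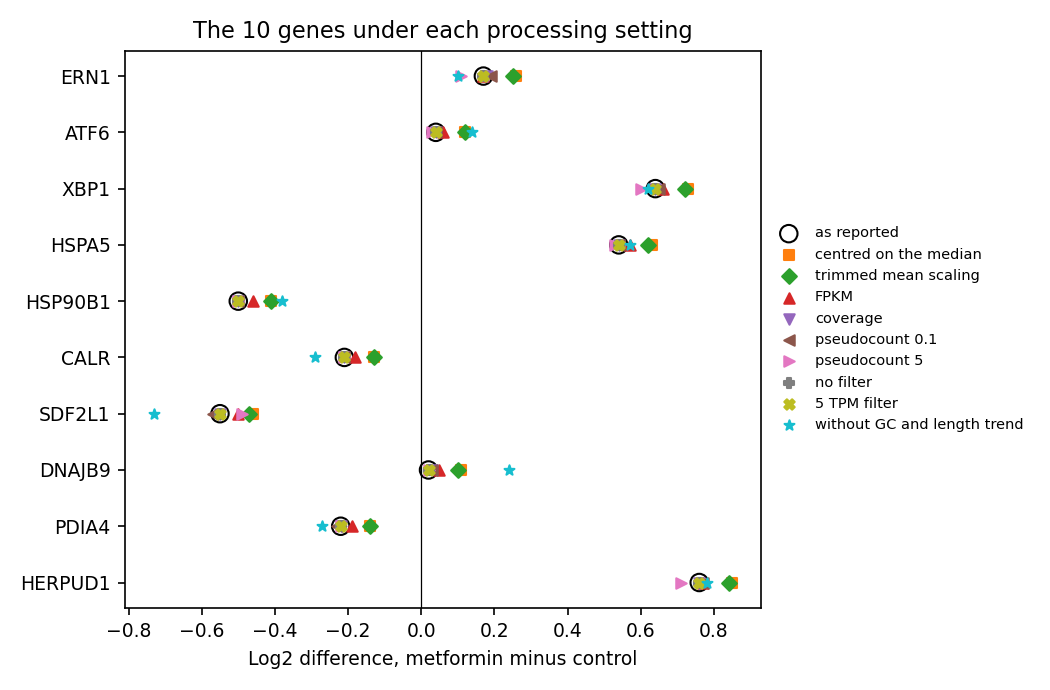
Log2 difference, metformin minus control, of each of the 10 genes under 10 settings, the reported one (open circles) and 9 alternatives (filled marks). HERPUD1, XBP1 and HSPA5 stay between 0.53 and 0.85, and HSP90B1, CALR, SDF2L1 and PDIA4 stay below 0.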

How the data were processed

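Per the labels' protocols, stranded mRNA libraries were sequenced on a NovaSeq instrument and mapped to hg19 with Bowtie2. The tools Trimmomatic 0.38 and HISAT2 come per the submitters' processing notes. Which program computed the abundances and whether it used strand are not given in the sources used here. The authors, per the file headers, deposited TPM, FPKM and coverage (mean read depth) for each gene of each library. TPM gave the reported values.

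Rows of a gene ID were summed, and RefSeq symbols were matched to 27559 of 27685 IDs. Depth came from the largest ratio of coverage to FPKM, at 202 bases a read pair, the base total seen most often in short genes (44 of 479 in metformin, 33 of 508 in control). Read pairs per gene came from FPKM and the canonical GENCODE 44 transcript length, and gave exact Clopper-Pearson 95% intervals. These are estimates. The design held 1 library per group, so no test was run. Differences used a pseudocount of 1 TPM. Alternatives were another scaling, unit, pseudocount or filter, and a quadratic GC and length trend removed. The genes and lists were chosen with earlier results of these data known. Beside the 10 genes and 15 others fixed by name, the text names the 3 highest and the 3 lowest genes of each list at 5 TPM or more; other genes were named after their values were seen. The steps were tested on simulated data. Python 3.11.15 and scipy 1.17.1 were used.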

Additional observations from a re-analysis of the deposited data

How the results depend on the processing

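No paired analysis was possible because each group has 1 library, and for the same reason no replicate could be left out. The median log2 difference of the 10 genes ranged from 0.02 to 0.12 over the 9 alternatives, against 0.03 as reported. No alternative put a gene past 2-fold. The genes higher by 1.5-fold numbered 2 as reported and 3, with HSPA5 added, under centring and under trimmed mean scaling. The genes lower by 1.5-fold numbered 0 as reported and 1, SDF2L1, without the GC and length trend. None of the 10 genes changed sign, which a changed filter or pseudocount could not have brought about. Of the other alternatives, only the removal of the GC and length trend acted gene by gene. With HSP90B1 and MIR3652 summed, an alternative chosen after seeing the data, the log2 difference was -0.48. Over all measured genes the scaling mattered more: 213 genes were higher and 175 lower by 2-fold as reported (54.9% higher), 270 and 114 after centring (70.3%), 261 and 130 with trimmed mean scaling (66.8%). At 1.5-fold they were 760 and 990 as reported (43.4%) and 1032 and 672 after centring (60.6%). In the wider lists and the set of all measured genes together, 30 recomputed values moved and 267 did not. Read counts limit ERN1, DNAJB9 and SDF2L1 most.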

Other observations

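Of 12 cytosolic heat shock genes, 2 lay above 0 and 10 below in metformin, with a median log2 difference of -0.28. The share below 0 was 83.3%, against 60.7% of the ER chaperones and co-chaperones and 59.7% of all measured genes, and no difference between these shares was tested. HSP90AA1, the inducible cytosolic HSP90 and a paralog of HSP90B1, had 3910 TPM in metformin and 5611 in control, a ratio of 0.697 (95% counting interval 0.692 to 0.701) close to the 0.707 of HSP90B1. HSP90AB1, the constitutive form, stood at 0.935. HSPH1, a nucleotide exchange factor of HSP70, had 95.9 TPM in metformin and 156 in control, and CHORDC1, an HSP90 co-chaperone, 37.8 and 65.3. HSPB1, the small heat shock protein HSP27, was 2.14-fold higher, with 1496 TPM in metformin and 701 in control. HSF1, the heat shock transcription factor, which overlaps DGAT1 on the other strand, stood at 1.08. The list's 2 genes above 0 became 1 without the GC and length trend.

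Among 12 genes of ER calcium handling and of proteins that bind IRE1 or sit at ER contact sites, BAX and BAK1 included, 4 lay above 0 and 8 below, and 7 and 5 after centring. The share below 0 of 66.7% was near the 59.7% of all measured genes, of which 50.9% lay above 0 after centring. ATP2A2, the calcium pump that fills the ER store, had 99.8 TPM in metformin and 121 in control, TMCO1, a calcium release channel of the ER, 32.0 and 51.7, and PDZD8, a lipid transfer protein of ER contact sites, 15.0 and 19.3. ITPR3, an inositol trisphosphate receptor, had 41.9 and 37.0, STIM1, the sensor of store calcium, 17.3 and 16.5, and TMBIM6, or BAX inhibitor 1, a known inhibitor of IRE1, 565 and 569. Of genes with an ER stress element that were in no list, FICD, the enzyme that adds AMP to HSPA5, had 5.30 TPM in metformin and 6.77 in control, ALG12, a mannosyltransferase of N-glycan assembly, 12.3 and 17.0, and NUCB1, a calcium-binding protein of the Golgi, 85.2 and 87.6. These 3 were named after their values were seen.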
